A study of Mus musculus with 12 samples.

Results

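The inhibitors of cyclin-dependent kinases (CDKs) and the retinoblastoma family were examined across spermatogonia of the adult mouse testis. The 10 genes were taken by name from the 55385 genes of the deposited expression table. No measured value entered that rule, but earlier results of these data were known when the genes were chosen. All 10 were found: *Cdkn1a*, *Cdkn1b* and *Cdkn1c* of the CIP/KIP family, *Cdkn2a*, *Cdkn2b*, *Cdkn2c* and *Cdkn2d* of the INK4 family, and *Rb1*, *Rbl1* and *Rbl2* of the retinoblastoma family. Bulk RNA-seq was available for 12 libraries in 6 groups of 2. Undifferentiated spermatogonia (Aundiff, the population that holds the stem cells, sorted as E-cadherin+ CD9-high KIT- cells) and early differentiating spermatogonia (Adiff, KIT+ CD9-medium) came from untreated wild-type (WT) C57BL/6 mice 2 to 3 mo old. Aundiff also came from PRC1ctrl (Ring1-/-; Rnf2 F/+; Ddx4-Cre) and PRC1cKO (Ring1-/-; Rnf2 F/-; Ddx4-Cre) mice labelled as of the strain C57BL/6 X FVB/NJ, either untreated at 2 mo or after about 30 daily injections, begun at 1 mo, of Win18446 (40 μg/μl in 50 μl dimethyl sulfoxide), an inhibitor of retinoic acid synthesis that holds back spermatogonial differentiation. *Ring1* and *Rnf2* encode the paired RING ubiquitin ligases of Polycomb repressive complex 1 (PRC1), so every PRC1 mouse, control or not, carries the *Ring1* deletion and a Cre driven in germ cells by *Ddx4* regulatory sequence. Cells were pooled, about 7000 per library for the PRC1 mice at 2 mo and 100000 to 150000 for the other groups.

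Progress from G1 into S phase is driven by cyclin D with CDK4 or CDK6 and by cyclin E with CDK2, which phosphorylate the retinoblastoma proteins and release E2F transcription factors. INK4 proteins bind CDK4 and CDK6 only, whereas CIP/KIP proteins bind a wider range of cyclin-CDK complexes. The *Cdkn2a* locus is a classical target of Polycomb repression in somatic cells, and its 2 promoters give p16INK4A, an inhibitor of CDK4 and CDK6, and p19ARF, which stabilises p53 by binding MDM2.

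Promoter sequences are shown for the genes on which the results turn: *Cdkn2a*, for which both starts are given because expression of the gene sums their transcripts, and the genes that changed most upon WT differentiation in each direction, *Cdkn1b* and *Cdkn2c*. RefSeq (GRCm38.p6) gave promoters for 8 of the 10 genes. Each line holds the 250 bases before a transcription start, 5' to 3' on the strand of the gene, with motifs in capitals. The *Cdkn2a* starts are on the minus strand at chr4:89294620-89294869 (distal, ARF) and chr4:89282193-89282442 (proximal, INK4A), *Cdkn1b* is on the plus strand at chr6:134920151-134920400, and the upstream *Cdkn2c* start is on the minus strand at chr4:109666757-109667006.
Cdkn2a distal: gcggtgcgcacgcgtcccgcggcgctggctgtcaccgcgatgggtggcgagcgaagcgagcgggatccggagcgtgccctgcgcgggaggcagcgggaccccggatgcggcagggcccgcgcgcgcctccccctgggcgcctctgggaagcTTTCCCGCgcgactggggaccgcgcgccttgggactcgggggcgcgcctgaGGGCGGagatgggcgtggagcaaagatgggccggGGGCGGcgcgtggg
Cdkn2a proximal: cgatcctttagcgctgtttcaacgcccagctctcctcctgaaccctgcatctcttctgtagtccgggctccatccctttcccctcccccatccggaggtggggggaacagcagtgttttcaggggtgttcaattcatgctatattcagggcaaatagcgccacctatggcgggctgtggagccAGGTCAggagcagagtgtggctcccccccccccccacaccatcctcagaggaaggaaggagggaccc
Cdkn1b: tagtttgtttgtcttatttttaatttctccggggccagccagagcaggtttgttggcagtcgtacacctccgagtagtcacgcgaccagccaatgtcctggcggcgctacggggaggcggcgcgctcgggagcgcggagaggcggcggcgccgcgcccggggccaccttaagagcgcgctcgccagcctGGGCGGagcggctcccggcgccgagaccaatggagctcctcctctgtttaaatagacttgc
Cdkn2c upstream: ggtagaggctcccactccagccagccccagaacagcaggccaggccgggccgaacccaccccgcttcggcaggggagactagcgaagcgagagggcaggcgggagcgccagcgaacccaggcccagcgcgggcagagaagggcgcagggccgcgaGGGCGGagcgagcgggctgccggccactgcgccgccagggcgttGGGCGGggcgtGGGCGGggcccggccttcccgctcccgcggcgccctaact

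Searched on both strands were the E2F sites TTTGGCGC, TTTCGCGC and TTTCCCGC, the GC box GGGCGG, the E-box CACGTG and the nuclear receptor motif AGGTCA, and no motif was overlapped by another in the sequences printed. The distal *Cdkn2a* promoter held TTTCCCGC at position -99 from the start and 2 GC boxes, against 0.895% and 32.7% of 32851 mouse promoters that hold these motifs. Among the other genes, *Rbl1* held an E2F site (TTTCGCGC, in 0.256% of promoters) at position -18. The proximal *Cdkn2a* promoter held 1 AGGTCA (14.0% of promoters) and none of the others, *Cdkn1b* held 1 GC box and *Cdkn2c* 3. Distal *Cdkn2a*, *Cdkn2c* and *Cdkn1b* were rich in CpG, with 40, 29 and 28 CpG dinucleotides against a median of 6, and the proximal *Cdkn2a* promoter had 7. A match of letters is a description and does not show that a factor is bound.

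All 10 genes are protein-coding, and their coordinates equal those of the GENCODE annotation of GRCm38. *Cdkn2a* (ENSMUSG00000044303, chr4:89274471-89294653) and *Cdkn2b* (ENSMUSG00000073802, chr4:89306299-89311039) are neighbours on the minus strand, *Cdkn2c* (ENSMUSG00000028551) lies on the same chromosome at chr4:109660876-109667189, and *Cdkn1b* (ENSMUSG00000003031) at chr6:134920401-134925513. Genes on the opposite strand cover 30.7% of the exonic bases of *Cdkn1c* (chr7:143458339-143461050), 20.97% of *Rbl2* (chr8:91070057-91123844), 14.9% of *Rb1* (chr14:73183673-73325822) and 7.68% of *Cdkn1a* (chr17:29090976-29100727), and in the Smart-Seq2 libraries, whose kit does not mark strand, reads of a gene and its opposite partner cannot be told apart. The other genes, among them *Cdkn2d* (chr9:21288410-21291407) and *Rbl1* (chr2:157145893-157204534), share no exonic base with another gene.

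Expression is given in TPM, a share of the library's transcripts corrected for their length, so levels of different genes may be set side by side within a library. The difference between PRC1ctrl at 2 mo and after Win18446 fell with transcript GC content, as given below, so ranks and family shares may hold such a dependence. Read numbers and hence counting errors are unknown. A TPM of at least 1 was reached by 12422 to 13986 genes in the 4 libraries of PRC1 mice at 2 mo, made by the Smart-Seq2 method from few cells, and by 14796 to 16599 genes in the 8 others, made with the TruSeq stranded mRNA kit. Kit and treatment therefore cannot be told apart within the PRC1 mice. *Ring1* lay between 0.03 and 0.25 TPM in the 8 PRC1 libraries and between 8.61 and 19.9 TPM in WT. *Rnf2*, the gene deleted in PRC1cKO, was not lower under that label, with 56.7 and 67.5 TPM against 28.3 and 47.6 TPM under PRC1ctrl at 2 mo, and 86.2 and 93.1 TPM against 78.1 and 67.2 TPM after Win18446. Gene-level TPM does not separate transcripts with and without the floxed exons, so PRC1cKO and PRC1ctrl below are the labels of the libraries. All 7 markers of undifferentiated spermatogonia reached 1 TPM in every library labelled Aundiff, and their summed TPM was 874 to 975 in WT Aundiff and 282 to 316 in WT Adiff. Genes of other cells were present too: summed spermatid markers lay between 527 and 842 TPM in WT, and, in the PRC1 mice, were lower under PRC1cKO, at 49.3 to 57.5 against 746 to 1736 TPM at 2 mo and 17.0 to 17.5 against 117 to 128 TPM after Win18446. Summed markers of Leydig cells ranged from 1.01 to 396 TPM, of Sertoli cells from 13.8 to 82.6 TPM, of macrophages from 2.14 to 21.5 TPM and of peritubular and endothelial cells from 1.95 to 46.0 TPM. At 2 mo the Leydig cell sum was 1.01 to 1.18 TPM under PRC1ctrl and 20.6 to 46.7 TPM under PRC1cKO, and after Win18446 the order was the other way, with 81.9 to 396 TPM under PRC1ctrl and 20.2 to 72.4 TPM under PRC1cKO. In sorted bulk samples, fewer cells of a type and less RNA per cell cannot be told apart.

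In WT Aundiff the family was led by *Cdkn2a*, at 123 and 136 TPM, followed by *Cdkn1c* (p57), at 57.5 and 56.2 TPM, *Cdkn1b* (p27), at 31.4 and 31.6 TPM, and *Rb1*, at 26.9 and 21.2 TPM. The other 6 genes lay between 1.33 and 8.56 TPM, with *Cdkn2c* (p18) the lowest in both libraries. All 10 genes reached 1 TPM in at least 10 of the 12 libraries, so none was silent. Over all libraries *Cdkn1a* ran from 5.22 to 23.0 TPM and *Rb1* from 9.88 to 84.4 TPM, while *Cdkn1b* ran from 0.36 to 44.5 TPM and *Rbl2* from 0.49 to 25.7 TPM.

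**Figure D1:**
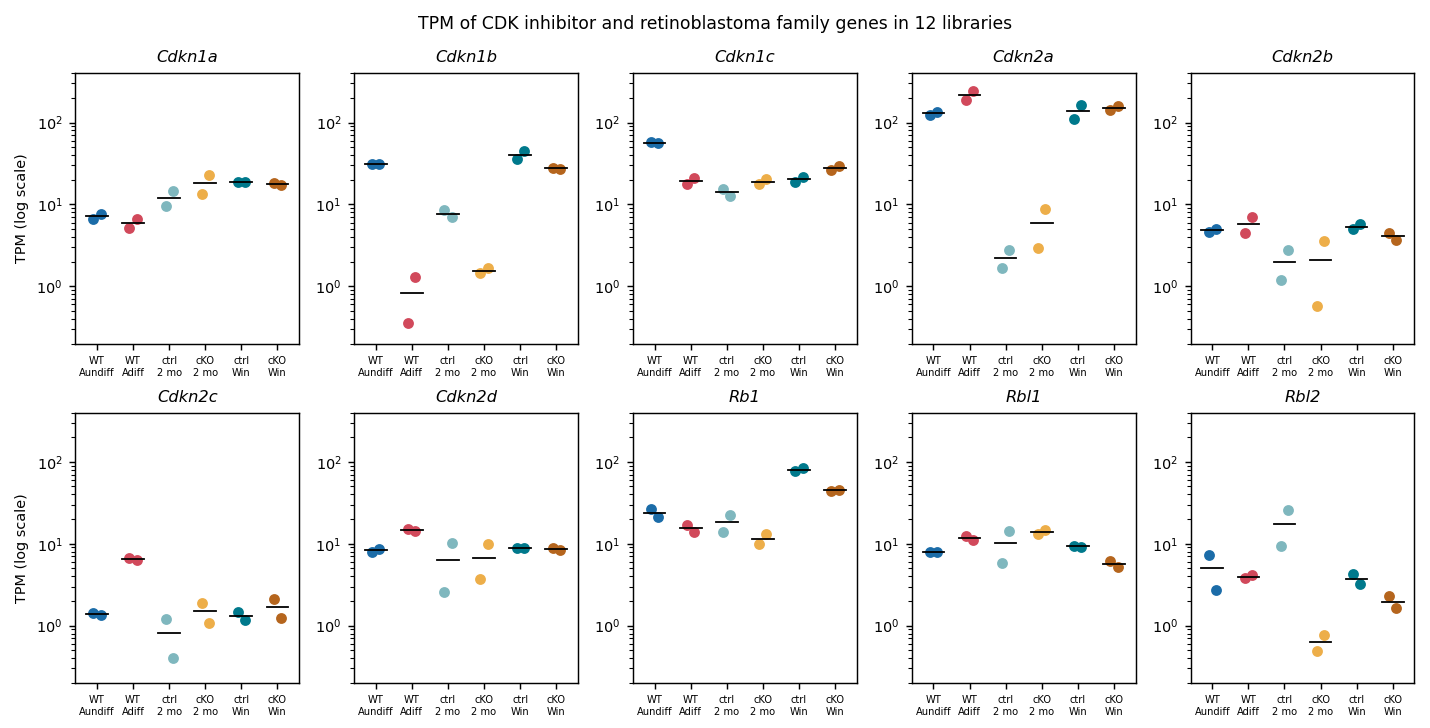
TPM of the 10 genes on a log scale in each of the 12 libraries (points) with the mean of each group of 2 (lines), for WT Aundiff, WT Adiff, and PRC1ctrl and PRC1cKO Aundiff at 2 mo and after Win18446 (Win). *Cdkn2a* lay between 1.67 and 8.89 TPM in the 4 libraries at 2 mo and between 111 and 245 TPM in the 8 others, and *Cdkn1b* was lowest in WT Adiff and in PRC1cKO at 2 mo.

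The first comparison asks how gene expression differs between WT Aundiff and Adiff. Of the 10 genes, 2 of the 3 CIP/KIP inhibitors, *Cdkn1b* and *Cdkn1c*, were lower in Adiff and 1 INK4 inhibitor, *Cdkn2c*, was higher, and the retinoblastoma family held no call (limma on log2(TPM + 1), Benjamini-Hochberg adjusted p under 0.05 and absolute log2 fold change above 1). Among the 15470 genes tested, 11.1% were called higher and 9.24% lower, so 2 of 10 lower and 1 of 10 higher are to be read against about 1 of 10 in each direction. The median log2 fold change was 0.02 over the 10 genes and 0.15 over all genes. The latter is a shift that scaling by median-of-ratios factors removed (-0.01), and relative to it the 3 called changes were -4.35, -1.66 and 1.52. All 3 were called under that scaling too, where the split of all calls turned from 1724 higher and 1430 lower to 1164 and 1761.

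*Cdkn1b* encodes p27, the CIP/KIP inhibitor that holds quiescent cells out of S phase and that SCF-SKP2 marks for degradation. It had 31.4 and 31.6 TPM in Aundiff and 0.36 and 1.3 TPM in Adiff, so that every Adiff library lay far below both Aundiff libraries. Its log2 fold change was -4.20 (standard error, SE, 0.30, limma adjusted p = 0.000866), an 18.4-fold decrease on the TPM + 1 scale and a log2 fold change of -5.30 with a pseudocount of 0.1, because the Adiff values lie near 1 TPM. Leaving out each library in turn gave -4.58 to -3.82.

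*Cdkn1c* encodes p57, an imprinted CIP/KIP inhibitor expressed from the maternal allele in somatic tissues. It had 57.5 and 56.2 TPM in Aundiff and 17.8 and 20.8 TPM in Adiff, with no overlap. The log2 fold change was -1.51 (SE 0.15, limma adjusted p = 0.00172), a 2.86-fold decrease. *Cdkn1a*, which encodes p21, a main transcriptional target of p53, had 6.69 and 7.65 TPM in Aundiff and 5.22 and 6.57 TPM in Adiff. Its log2 fold change of -0.25 did not pass the test (95% confidence interval -0.80 to 0.30, limma adjusted p = 0.418). The summed TPM of the 3 genes was 95.4 and 95.6 in Aundiff and 23.4 and 28.7 in Adiff, and the share of *Cdkn1b* in that sum was 32.9% to 33.1% in Aundiff and 1.54% to 4.53% in Adiff.

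*Cdkn2c*, which encodes p18INK4C, had 1.41 and 1.33 TPM in Aundiff and 6.70 and 6.41 TPM in Adiff. The groups were well apart, and the log2 fold change was 1.67 (SE 0.24, limma adjusted p = 0.00417), a 3.19-fold increase. It was still the lowest or second lowest INK4 level in Adiff, where it made up 2.35% to 3.10% of the INK4 sum. *Cdkn2a* had 123 and 136 TPM in Aundiff and 190 and 245 TPM in Adiff, and *Cdkn2d* (p19INK4D) had 8.02 and 8.56 TPM against 15.2 and 14.5 TPM. Both were higher in every Adiff library but below the fold threshold, with log2 fold changes of 0.74 (limma adjusted p = 0.0146) and 0.77 (limma adjusted p = 0.0202). On the adjusted p alone, 3 genes were higher and 2 lower, against 23.4% and 14.7% of all genes. For *Cdkn2a* the adjusted p rose to 0.0827 without the first Aundiff library, for *Cdkn2d* to 0.106 and 0.0777 without the first and the second, and both lay above 0.05 in a fit over all 12 libraries (0.198 and 0.288). *Cdkn2b* (p15), which lies beside *Cdkn2a*, had 4.61 and 5.0 TPM in Aundiff and 4.48 and 7.08 TPM in Adiff, overlapping (log2 fold change 0.20, limma adjusted p = 0.596).

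In the retinoblastoma family, *Rb1*, the main partner of the activating E2F factors, had 26.9 and 21.2 TPM in Aundiff and 17.0 and 13.9 TPM in Adiff. Its log2 fold change of -0.60 missed the test (limma adjusted p = 0.0543, 0.0203 to 0.283 over all alternatives, the highest without the first Aundiff library). *Rbl1* (p107) had 7.97 and 8.02 TPM against 12.5 and 11.1 TPM (log2 fold change 0.51, limma adjusted p = 0.0789). Neither pair of groups overlapped. The share of all genes without overlap was not computed, for these genes or for any other gene named here. With 2 libraries against 2, an exact permutation cannot give p below 0.33. *Rbl2* (p130), the family member that accumulates in quiescent cells, had 7.29 and 2.72 TPM in Aundiff and 3.83 and 4.11 TPM in Adiff, so the Aundiff libraries lay on either side of Adiff (log2 fold change -0.16, limma adjusted p = 0.778). *Rb1* made up 63.8% to 66.4% of the summed TPM of the family in Aundiff and 47.8% to 50.9% in Adiff, and *Rbl1* 18.9% to 25.1% and 37.6% to 38.2%.

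Genes of the pathway around these inhibitors, not only those on which they act, were counted by list. Of 57 genes of the pathway, 17 were called higher in Adiff and none lower (37 and 7 at an unadjusted p under 0.05 in limma), and 46 had a positive log2 fold change, with a median of 0.71. Over all genes 11.1% were called higher and 9.24% lower, and 7593 of 15470 had an unadjusted p under 0.05. Called higher were 2 of 5 cyclin D kinase genes (*Ccnd1*, log2 fold change 1.91, limma adjusted p = 0.00093, and *Cdk6*, 1.21, limma adjusted p = 0.0312), and 4 of 9 genes of cyclin E, A and B kinases, among them *Cdk2* (1.53, limma adjusted p = 0.00126) and *Ccne2* (2.28, limma adjusted p = 0.00179). The other 3 cyclin D kinase genes were lower at an unadjusted p under 0.05 in limma, short of the fold threshold. The cyclin D list had a median log2 fold change of -0.69. Of 10 E2F and DP genes, the 3 called were *E2f2* (1.84, limma adjusted p = 0.00373) and the repressors *E2f7* (1.89, limma adjusted p = 0.002) and *E2f8* (2.16, limma adjusted p = 0.00194). Of 14 E2F target genes, 6 were called, led by the ribonucleotide reductase subunit *Rrm2* (1.80, limma adjusted p = 0.00157) and the replication licensing factor *Cdc6* (1.66, limma adjusted p = 0.0015). The MuvB list held 1 call (*Rbbp4*), and the lists of SCF-SKP2, of p53 and MDM and of other CDK-binding inhibitors held none. The last gene of the 57, the proliferation marker *Mki67*, had 7.02 and 6.73 TPM in Aundiff and 39.2 and 29.5 TPM in Adiff (log2 fold change 2.15, limma adjusted p = 0.0014).

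**Figure D2:**
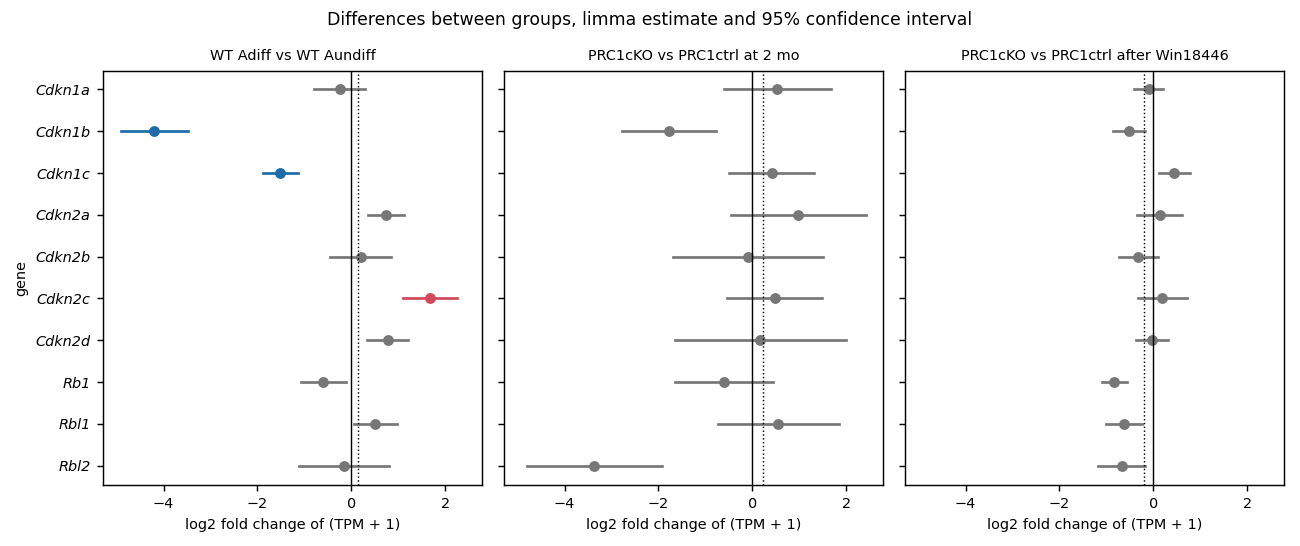
Log2 fold change of TPM + 1 (points) with its 95% confidence interval from limma (bars) for the 10 genes in the 3 comparisons, with called genes in blue (lower) or red (higher), genes not called in grey, and the median of all tested genes as a dotted line. *Cdkn1b*, *Cdkn1c* and *Cdkn2c* were called in WT, none was called in the PRC1 mice, and the intervals at 2 mo were the widest.

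The second comparison asks what differs in Aundiff of PRC1cKO mice at 2 mo. None of the 10 genes was called, where 0.222% of 13953 genes were called higher and 1.94% lower, and no further gene reached an adjusted p under 0.05 at a smaller fold. Across all genes 1985 had an unadjusted p under 0.05. The members that did so were *Cdkn1b* and *Rbl2*, both lower under PRC1cKO. The median log2 fold change was 0.29 over the 10 genes and 0.22 over all genes, the latter -0.04 after median-of-ratios scaling. The 2 libraries of a group were less alike here than in the other comparisons (correlation of log2(TPM + 1) across genes 0.947 and 0.956, against 0.980 to 0.991). The median standard error over all genes was 0.42, against 0.22 in WT and 0.17 after Win18446. A fit over all 12 libraries gives each gene a single variance for all groups, so its adjusted p does not rest on the spread of the compared libraries alone.

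*Cdkn1b* had 8.45 and 7.01 TPM under PRC1ctrl and 1.44 and 1.67 TPM under PRC1cKO at 2 mo, with no overlap between the groups. The log2 fold change was -1.77 (95% confidence interval -2.77 to -0.77, unadjusted p = 0.00545), and it missed the threshold after adjustment over all genes (limma adjusted p = 0.109). It was called after median-of-ratios scaling (log2 fold change -2.01, limma adjusted p = 0.0243) and in a fit over all 12 libraries (limma adjusted p = 0.00206), and without any 1 library it was not (limma adjusted p = 0.162 to 0.619). Over all alternatives the adjusted p ranged from 0.00206 to 0.619. Its share of the CIP/KIP sum was 20.4% to 25.3% under PRC1ctrl and 3.73% to 4.41% under PRC1cKO. The 7 markers of undifferentiated spermatogonia summed to 902 to 1172 TPM under PRC1ctrl and 414 to 497 TPM under PRC1cKO, but they did not move as a list. Only *Nanos3* was called (log2 fold change -1.86, limma adjusted p = 0.0383), the sum was mostly that gene and *Sall4* (-1.06), and *Gfra1* (0.45), *Etv5* (0.40) and *Zbtb16* (0.10) lay the other way, for a median of -0.11. The 4 markers of differentiating spermatogonia summed to 163 to 191 and 372 to 407 TPM, most of it *Stra8*, and all had positive log2 fold changes, none of them called by limma (2 at an unadjusted p under 0.05). The part of either list in the difference was not tested.

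*Rbl2* had 9.37 and 25.7 TPM under PRC1ctrl and 0.49 and 0.76 TPM under PRC1cKO. This was the widest gap of the family at 2 mo, although the PRC1ctrl libraries themselves differed by more than 2-fold. The log2 fold change was -3.36 (95% confidence interval -4.80 to -1.93), short of the threshold (limma adjusted p = 0.0587) and past it after median-of-ratios scaling (-3.57, limma adjusted p = 0.00277), with a pseudocount of 0.1 (-4.46, limma adjusted p = 0.0405) and in the fit over all 12 libraries (limma adjusted p = 0.00142). The limma adjusted p ranged from 0.00142 to 0.270 over the other alternatives. It was 6.36e-06 with the replicate number as a block, although libraries of different groups share only that number. With 1 PRC1ctrl library left out, the gene no longer had 1 TPM in 2 libraries and was not tested. The summed spermatid markers were also higher under PRC1ctrl, with 746 TPM in the PRC1ctrl library at 9.37 TPM, 1736 TPM in that at 25.7 TPM, and 49.3 to 57.5 TPM under PRC1cKO, and their part in the difference was not tested.

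**Figure D3:**
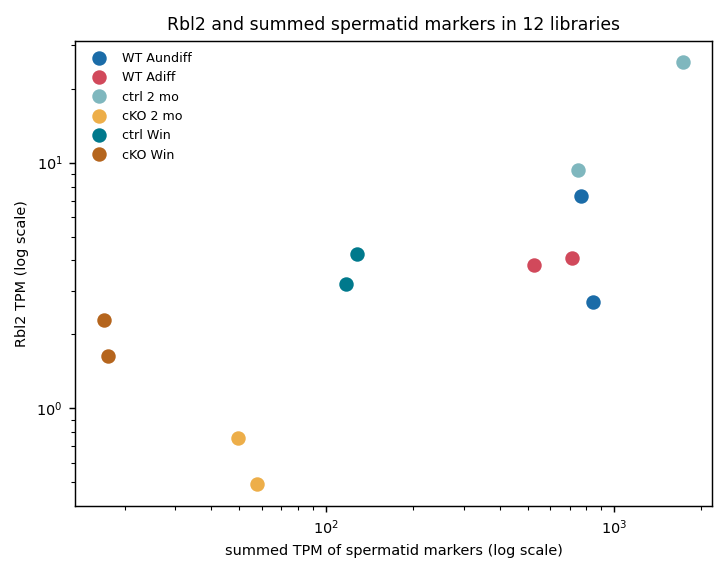
*Rbl2* TPM against the summed TPM of 6 spermatid markers in each of the 12 libraries, both on log scales, with a colour for each group. The PRC1ctrl libraries at 2 mo lay highest on both axes for the PRC1 mice and the PRC1cKO libraries at 2 mo lowest for *Rbl2*, while WT libraries with 527 to 842 TPM of markers had 2.72 to 7.29 TPM of *Rbl2*.

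Among the remaining genes at 2 mo, *Cdkn2a* had 1.67 and 2.76 TPM under PRC1ctrl and 2.97 and 8.89 TPM under PRC1cKO. The groups did not overlap, yet the spread within PRC1cKO exceeded the gap between them, and the log2 fold change of 0.98 had a 95% confidence interval from -0.46 to 2.43 (limma adjusted p = 0.523). The interval holds no change as well as a rise of more than 2-fold. *Cdkn2b* had 1.19 and 2.79 TPM against 0.58 and 3.62 TPM, *Cdkn2c* 1.22 and 0.40 TPM against 1.91 and 1.07 TPM, and *Cdkn2d* 2.57 and 10.2 TPM against 3.71 and 9.80 TPM. All 3 overlapped between groups. *Cdkn1a* had 9.48 and 14.8 TPM under PRC1ctrl and 13.4 and 23.0 TPM under PRC1cKO, and *Cdkn1c* 15.5 and 12.6 TPM against 17.8 and 20.2 TPM. *Rb1* had 14.0 and 22.4 TPM against 9.88 and 13.0 TPM, and *Rbl1* 5.78 and 14.4 TPM against 13.2 and 14.8 TPM. Of these 8 genes, the log2 fold changes lay between -0.60 and 0.98 and the adjusted p between 0.523 and 0.958.

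Of the pathway lists at 2 mo, 54 of 57 genes could be tested and none was called by limma (9 were higher and 1 lower at an unadjusted p under 0.05), while 45 had a positive log2 fold change, with a median of 0.61 against 0.22 over all genes. All 14 E2F target genes were positive (median 0.91), as were all 9 genes of cyclin E, A and B kinases (median 0.89) and 7 of 8 E2F and DP genes (median 0.44). Among the other lists, 3 of 5 SCF-SKP2 genes were negative (median -0.17). The same held for 2 of 5 cyclin D kinase genes (median 0.72) and 2 of 4 other CDK-binding inhibitors (median 0.14). The proliferation marker *Mki67* had 5.59 and 3.43 TPM under PRC1ctrl and 15.5 and 11.3 TPM under PRC1cKO. Its log2 fold change of 1.40 was not called (limma adjusted p = 0.228). No list is called changed from these counts.

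The third comparison sets PRC1cKO against PRC1ctrl after Win18446, when differentiation is held back in both. None of the 10 genes was called, where 1.27% of 16521 genes were called higher and 10.9% lower. On the limma adjusted p alone, 4 were lower (*Rb1*, *Rbl1*, *Rbl2* and *Cdkn1b*) and none higher, with *Cdkn1c* higher at an unadjusted p of 0.0164, against 5.87% and 26.7% of all genes, so 4 of 10 stands beside about 1 of 4 for the table. All genes had a median log2 fold change of -0.19, which became 0.03 after median-of-ratios scaling, and the 10 genes one of -0.21. The calls over all genes moved from 210 higher and 1807 lower to 376 and 1238 under that scaling. The changes below are given as deposited and relative to the median.

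All 3 retinoblastoma family genes had lower values in both PRC1cKO libraries than in either PRC1ctrl library. The share of all genes separated in this way was not computed, and 26.7% of all genes were lower on the limma adjusted p alone. *Rb1* had 76.7 and 84.4 TPM under PRC1ctrl and 44.4 and 45.4 TPM under PRC1cKO, a difference of -0.83 on the log2 scale (SE 0.11, limma adjusted p = 0.00385) and of -0.64 relative to the median. Without any 1 library its adjusted p stayed between 0.000527 and 0.0375, and it was 0.0102 after median-of-ratios scaling and 0.0659 in the fit over all 12 libraries. *Rbl1* had 9.51 and 9.18 TPM against 6.17 and 5.27 TPM (log2 fold change -0.63, limma adjusted p = 0.0249, -0.44 relative to the median). *Rbl2* had 4.24 and 3.21 TPM against 2.29 and 1.63 TPM (-0.68, limma adjusted p = 0.0499, -0.49 relative to the median). For these 2 genes the adjusted p rose above 0.05 without either PRC1cKO library or the first PRC1ctrl library, up to 0.132 for *Rbl1* and 0.232 for *Rbl2*, and after median-of-ratios scaling (0.0898 and 0.128) and in the fit over all 12 libraries (0.271 and 0.417). The make-up of the family was alike under both labels, with *Rb1* at 84.8% to 87.2% of the summed TPM under PRC1ctrl and 84.0% to 86.8% under PRC1cKO, while the sum was 90.5 and 96.8 TPM against 52.9 and 52.3 TPM.

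*Cdkn1b* had 35.9 and 44.5 TPM under PRC1ctrl and 28.2 and 27.4 TPM under PRC1cKO after Win18446, on either side of the 31.4 and 31.6 TPM of WT Aundiff. Its log2 fold change was -0.51 (SE 0.14, limma adjusted p = 0.0354) and -0.32 relative to the median. The adjusted p was 0.163 after median-of-ratios scaling, 0.261 in the fit over all 12 libraries, 0.168 without the second PRC1ctrl library, and 0.132 and 0.143 without the first and the second PRC1cKO library. *Cdkn1c* lay the other way, with 18.7 and 21.6 TPM under PRC1ctrl and 26.3 and 29.4 TPM under PRC1cKO, which is 0.45 on the log2 scale (limma adjusted p = 0.0501) and 0.64 relative to the median. After median-of-ratios scaling it was 0.68 (limma adjusted p = 0.0116), still under the fold threshold. *Cdkn1a* had 18.9 and 19.03 TPM against 18.2 and 17.1 TPM, a log2 fold change of -0.10 that turned to 0.13 after scaling (limma adjusted p = 0.598 and 0.433).

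The INK4 genes after Win18446 lay close together under both labels. *Cdkn2a* had 111 and 165 TPM under PRC1ctrl and 141 and 158 TPM under PRC1cKO, so the PRC1cKO libraries fell between those of PRC1ctrl. The log2 fold change was 0.14 with a 95% confidence interval from -0.34 to 0.61 (limma adjusted p = 0.634), an interval that holds no 2-fold change in either direction. *Cdkn2d* had 8.85 and 8.80 TPM against 8.78 and 8.46 TPM, and *Cdkn2c* 1.47 and 1.16 TPM against 2.09 and 1.24 TPM. *Cdkn2b* had 4.98 and 5.69 TPM against 4.42 and 3.73 TPM, without overlap (log2 fold change -0.32, limma adjusted p = 0.201).

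Of the 57 pathway genes after Win18446, 1 was called higher and 1 lower, with 32 positive log2 fold changes and a median of 0.08. *Rrm2* had 6.42 and 6.69 TPM under PRC1ctrl and 15.8 and 12.7 TPM under PRC1cKO (log2 fold change 1.00, limma adjusted p = 0.00582). *Mdm4*, whose product restrains p53, had 99.6 and 109 TPM against 24.4 and 31.4 TPM (log2 fold change -1.88, limma adjusted p = 0.00176). Of the 14 E2F target genes 13 were positive, with a median of 0.25, as were 7 of 9 genes of cyclin E, A and B kinases (median 0.31). Negative were 7 of 10 E2F and DP genes (median -0.22), 4 of 5 cyclin D kinase genes (median -0.17) and 3 of 6 MuvB genes (median -0.23). The proliferation marker *Mki67* had 7.98 and 8.78 TPM under PRC1ctrl and 3.69 and 9.06 TPM under PRC1cKO, so the PRC1cKO libraries lay on either side. Its log2 fold change of -0.45 was not called (limma adjusted p = 0.407). Summed markers of undifferentiated spermatogonia were 804 to 884 TPM under PRC1ctrl and 607 to 703 TPM under PRC1cKO. In this list *Zbtb16* at -0.78 had the widest of 6 negative log2 fold changes. None was called by limma (2 at an unadjusted p under 0.05, beside 7317 of all 16521 genes). Summed markers of differentiating spermatogonia were 390 to 422 and 401 to 435 TPM, of which *Sohlh1* made up most (371 and 398 against 361 and 397 TPM). Within that list *Kit* (log2 fold change 1.42, limma adjusted p = 0.00263) and *Dmrtb1* (1.66, limma adjusted p = 0.0041) were called higher under PRC1cKO, and *Stra8* had -0.50 (limma adjusted p = 0.046), under the fold threshold. Spermatid markers, lower under PRC1cKO here too (*Prm2* and *Acrv1* listed at 0), and the Leydig cell sum moved with the retinoblastoma genes, and their part was not tested.

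The difference between labels was compared between 2 mo and Win18446 by an interaction term over the 8 libraries of the PRC1 mice. Only *Rbl2* was called among the 10 genes, and it was higher, where 2.76% of 18354 genes were called higher and 4.98% lower. Its difference between labels was -3.36 at 2 mo and -0.68 after Win18446, and the interaction was 2.69 (SE 0.62, limma adjusted p = 0.0485). The call was lost without either PRC1cKO library at 2 mo (adjusted p = 0.0842 and 0.106) or any 1 of the 4 libraries after Win18446 (adjusted p = 0.133 to 0.227), and it was kept without either PRC1ctrl library at 2 mo. It was also lost with a pseudocount of 0.1 (limma adjusted p = 0.063), without a filter on low values (limma adjusted p = 0.0947) and at a mean of at least 5 TPM (limma adjusted p = 0.0891), and over all alternatives the adjusted p ranged from 0.00556 to 0.227. For *Cdkn1b* the interaction was 1.26 (limma adjusted p = 0.067), and it was called after median-of-ratios scaling (2.04, limma adjusted p = 0.0351). The other 8 genes had interactions between -1.18 and 0.03 with adjusted p from 0.241 to 0.959. All genes had a median interaction of -0.41, which became 0.14 after median-of-ratios scaling. Relative to the median as deposited, *Rbl2* was 3.10, *Cdkn1b* 1.67 and the other 8 genes between -0.77 and 0.45. Among the pathway genes, *Mdm4* (-1.67, limma adjusted p = 0.0229), *Ccnb3* (-1.77, limma adjusted p = 0.0176) and *Lin9* (-1.53, limma adjusted p = 0.0283) were called lower and none higher (8 and 1 at an unadjusted p under 0.05). Over all genes, 4541 of 18354 had an unadjusted p under 0.05 in limma. Since treatment goes with the kit, an interaction may hold an effect of either. The interaction also takes a single variance per gene, although the median standard error was 0.42 at 2 mo and 0.17 after Win18446.

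Levels across the 6 groups are described without a test, because strain, kit and treatment differ between them. *Cdkn1b* ran from PRC1ctrl after Win18446, with a mean of 40.2 TPM, through WT Aundiff (31.5 TPM) and PRC1cKO after Win18446 (27.8 TPM) to PRC1ctrl at 2 mo (7.73 TPM), PRC1cKO at 2 mo (1.56 TPM) and WT Adiff (0.83 TPM), and the last 2 were not separated by more than the spread within a group. *Rb1* was highest in the Win18446 groups (80.6 and 44.9 TPM), with the ranges of WT Aundiff (24.0 TPM), PRC1ctrl at 2 mo (18.2 TPM) and WT Adiff (15.5 TPM) overlapping from one to the next. *Cdkn1c* stood alone in WT Aundiff (56.8 TPM), and the other 5 groups lay between 14.0 and 27.8 TPM. *Cdkn2c* likewise stood alone in WT Adiff (6.56 TPM), with every other group between 0.81 and 1.67 TPM and each overlapping the next. *Cdkn2d* was highest in WT Adiff (14.8 TPM), and neighbours among its other groups, from 6.41 to 8.83 TPM, did not differ by more than their spread.

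**Figure D4:**
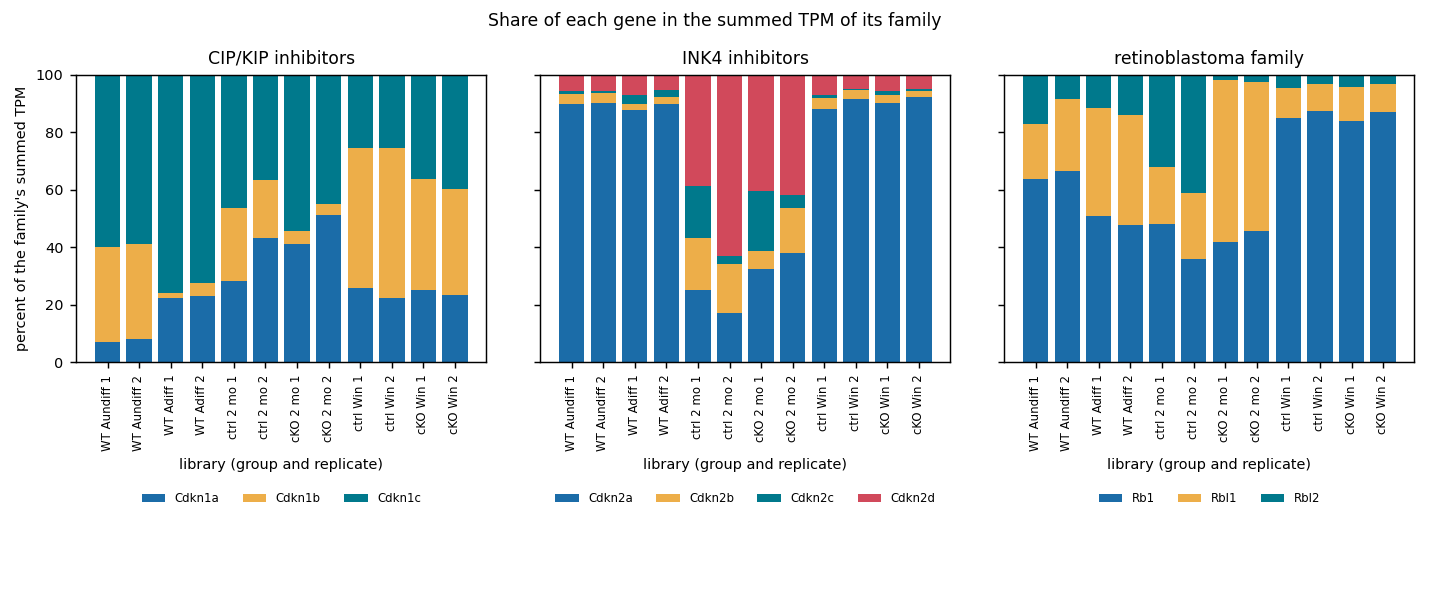
Share of each gene in the summed TPM of the CIP/KIP, INK4 and retinoblastoma genes, in percent, for each of the 12 libraries. *Cdkn2a* made up 87.8% to 92.2% of the INK4 sum in the 8 TruSeq libraries and 17.0% to 38.0% in the 4 Smart-Seq2 libraries, and *Rbl2* made up 32.1% to 41.1% of its family in PRC1ctrl at 2 mo.

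The level of *Cdkn2a* split the libraries by kit, which goes with the number of cells and, in the PRC1 mice, with treatment. It lay between 1.67 and 8.89 TPM in the 4 Smart-Seq2 libraries and between 111 and 245 TPM in the 8 TruSeq libraries, with WT and PRC1 mice alike on the high side. Its neighbour *Mtap* had 10.6 to 15.6 TPM in the former and 15.9 to 21.7 TPM in the latter. Across 17122 genes, the difference between PRC1ctrl at 2 mo and PRC1ctrl after Win18446 fell with the GC content of the transcript, from a median of 0.26 on the log2(TPM + 1) scale in the lowest decile to -2.56 in the highest. *Cdkn2a*, with a GC content of 60.2%, is in the highest decile and had a difference of -5.43, which 5.49% of that decile reached or exceeded downwards. *Cdkn1c* (59.4% GC) and *Cdkn2c* (58.0% GC) share that decile, with differences of -0.50 and -0.39. *Cdkn1b* and *Rb1*, in the second lowest decile with a median of -0.13, had differences of -2.23 and -2.12, reached by 6.72% and 8.12% of it, and *Rbl2* was higher at 2 mo by 1.83 against a decile median of -0.78. Kit, treatment and number of cells cannot be told apart in these differences.

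**Figure D5:**
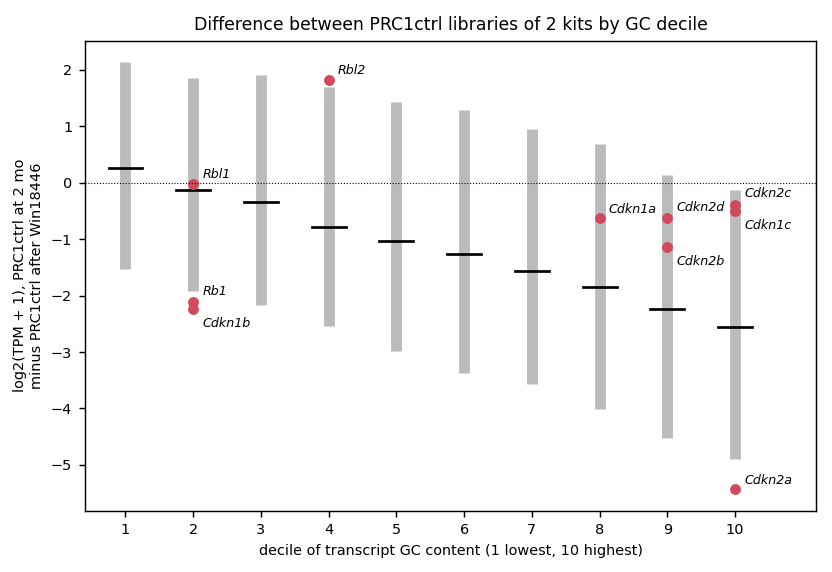
Difference in log2(TPM + 1) between the means of PRC1ctrl at 2 mo (Smart-Seq2) and PRC1ctrl after Win18446 (TruSeq) by decile of transcript GC content, as the median (line) and the 10th to 90th percentile (grey bar) of 17122 genes, with the 10 genes as red points. *Cdkn2a* (-5.43) lay below the grey bar of its decile, *Rb1* and *Cdkn1b* below that of decile 2, and *Rbl2* (1.83) above that of decile 4.

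The genes whose pattern over the 12 libraries was most like that of the members that moved were listed by Pearson's correlation of log2(TPM + 1) over 10144 genes with a mean of at least 5 TPM, as a description, since the libraries share groups and kits. For *Cdkn1b* these were *Sntg2* (r = 0.980), *Syce1l* (0.978) and the immune checkpoint ligand gene *Cd274* (0.971), and the most opposite were *Cpsf2* (-0.984), *Ncbp3* (-0.980) and *Stmn1* (-0.974). *Cdkn1c* was closest to *Rps27* (0.909), *Capg* (0.889) and the spermatogonial transcription factor gene *Foxc2* (0.887), and most opposite to *Rbm34* (-0.936), *Pibf1* (-0.927) and *Hltf* (-0.921). *Rbl2* was closest to *Crisp2* (0.957), *Llcfc1* (0.941) and *Lrrc18* (0.938), of which *Crisp2* encodes a sperm protein, and most opposite to *Magea8* (-0.813), *Ltv1* (-0.754) and *Sorl1* (-0.746). *Cdkn2c*, compared over 10145 genes, was closest to *Fam8a1* (0.963), *Paip2b* (0.936) and *Plk5* (0.933), and most opposite to *Sdc4* (-0.970), *Pxt1* (-0.967) and the pluripotency-associated gene *Dppa4* (-0.964).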

How the data were processed

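RNA-seq of 12 libraries was used as the TPM that the authors deposited for 55385 genes in a single table. Per the labels and the study's methods, 100-base reads were trimmed with Trim Galore 0.6.6, aligned with HISAT2 2.2.1 to GRCm38, filtered at a mapping quality of 30 with SAMtools 1.9 and counted with HTSeq 1.6.0, while TPM came from RSEM 1.3.3. DESeq2 1.28.1 served the authors' own tests on counts, which were not used here. TPM keeps neither read number nor depth, so precision rests on the 2 libraries of each group.

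Groups were taken from the sample titles. The 10 genes, the lists of pathway genes and markers and the tests were chosen with earlier results of these data known. Values were used as log2(TPM + 1), and genes that reached 1 TPM in 2 or more libraries of a fit were tested with limma 3.58.1 (trend and robust moderation, two-sided) in R 4.3.3. Genes were called at a Benjamini-Hochberg adjusted p under 0.05 over all genes tested and an absolute log2 fold change above 1. Each of the 3 comparisons was made within 1 kit, and the interaction over 8 libraries. An exact permutation of 2 libraries against 2 cannot give p below 0.33 for a single gene. Named were all 10 genes, and pathway genes only where called, with *Mki67* in each comparison. For each member called in a comparison or the interaction as designed, the 3 genes with the highest and the 3 with the lowest correlation were named. *Rnf2*, *Ring1* and *Mtap* are given as checks.

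The alternatives tried were median-of-ratios scaling, a pseudocount of 0.1, moderation without trend and robust options, a filter at a mean of 5 TPM or none, a fit over 12 libraries, a replicate block, and leaving out each library. In the fit over 12 libraries and in the interaction each gene has a single variance for all groups, although the spread within groups differed between kits. The procedure was tested on simulated data. Promoters came from RefSeq (GRCm38.p6), and GENCODE vM21 gave exons and transcript GC content. Tables used pandas 2.3.3 and numpy 2.4.6 under Python 3.11.15, and figures matplotlib 3.10.9.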

Additional observations from a re-analysis of the deposited data

Results flagged for a closer look

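In the PRC1 mice, the *Rbl2* difference between labels was called as smaller after Win18446 than at 2 mo. The call lay close to the threshold and was lost under 10 alternatives. The difference between PRC1cKO and PRC1ctrl was -3.36 at 2 mo and -0.68 after Win18446 on the log2(TPM + 1) scale, and the interaction was 2.69 (standard error 0.62, limma adjusted p = 0.0485, 0.00556 to 0.227 over all alternatives). The groups did not overlap in either condition, and summed spermatid markers were also lower under PRC1cKO in both. Kit and treatment cannot be told apart in this term.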

How the results depend on the processing

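Of 457 alternative estimates for single genes, 410 kept direction and side of the threshold, 10 gained a call, 10 lost one (each of them *Rbl2* in the interaction) and 27 changed direction, none of them a called gene. In WT the 3 calls held under every alternative but the filter at a mean TPM of at least 5, which *Cdkn2c* did not pass, leaving 2 calls. At 2 mo, members called numbered 1 with a pseudocount of 0.1 and 2 with median-of-ratios scaling and the fit over 12 libraries, and 0 without any 1 library. All genes called numbered 301 there, 0 without a filter (limma, 2683 at an unadjusted p under 0.05), 96 at a mean TPM of at least 5, 914 with median-of-ratios scaling, 1711 in the fit over 12 libraries and 78 to 168 without 1 library. After Win18446, 955 of all genes were called at a mean TPM of at least 5 in place of 2017, and 1189 to 2120 without 1 library. In the interaction, members called numbered 0 with a pseudocount of 0.1, without a filter and at a mean TPM of at least 5, 2 with median-of-ratios scaling and without trend and robust options, and 0 to 2 without 1 library, where *Rbl1* was called lower without the second PRC1ctrl library at 2 mo (-1.77). Directions turned under median-of-ratios scaling for *Cdkn2d* at 2 mo (-0.087), for *Cdkn1a* (0.13) and *Cdkn2d* (0.19) after Win18446, and in the interaction for *Cdkn1a* (0.032), *Cdkn2b* (0.38), *Cdkn2c* (0.0050), *Cdkn2d* (0.40) and *Rb1* (0.48). Without 1 library, directions turned for *Rbl2* (-0.74 to 0.42) and *Cdkn2b* (-0.082 to 0.48) in WT, for *Cdkn2d* (-0.66 to 1.00), *Rbl1* (-0.042 to 1.15) and *Cdkn2b* (-0.87 to 0.68) at 2 mo, for *Cdkn2a* (-0.14 to 0.42) and *Cdkn2c* (-0.044 to 0.42) after Win18446, and in the interaction for *Cdkn1c* (-0.11 to 0.17), *Cdkn2b* (-1.002 to 0.55), *Cdkn2c* (-0.62 to 0.043), *Cdkn2d* (-1.03 to 0.63) and *Rb1* (-0.54 to 0.095). Where a group is left with 1 library, it is assumed to vary like the others. The cause of these changes was not tested.

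Libraries of different groups share only a replicate number, and deviations from the group means correlated across genes at 0.158 in WT, 0.381 at 2 mo and 0.122 after Win18446. With the replicate number as a replicate block, 2 members were called at 2 mo, *Cdkn1b* (-1.77, limma adjusted p = 0.00257) and *Rbl2* (-3.36, limma adjusted p = 6.36e-06), beside 2172 of all genes, and 0 in the interaction (*Rbl2*, limma adjusted p = 0.054). The block changed no other call of the 10 genes.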
